A study of Mus musculus with 4 samples.

Results

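The tendon and fascia genes followed here are 10 genes chosen by symbol, Scx, Mkx, Tnmd, Fmod, Kera, Chad, Comp, Thbs4, Tnc and Cilp2, and all 10 were found once among the 55387 rows of the brown fat libraries. Each library came from the brown adipose tissue (BAT) of 1 male mouse aged 15 weeks. The 2 control mice were Sox4f/f littermates (the labels call them WT), which carry the conditional Sox4 allele and no named Cre, and are also called controls here. The 2 mice labelled Sox4-MKO carry the same allele with a Cre recombinase driven by Myf5, a gene active in precursors of both brown adipocytes and skeletal muscle, so the deletion is not particular to fat. The labels name no treatment. The deposited values are FPKM, the number of fragments mapped to a gene scaled by transcript length and by library size. The labels name brown adipocytes as the cell type, but the tissue was taken whole.

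Tendon is dense connective tissue that joins muscle to bone, and fascia is the sheet of connective tissue that wraps muscle and fat depots. Tendon cells are known for the transcription factors scleraxis (Scx) and Mohawk (Mkx), for the membrane protein tenomodulin (Tnmd), and for a matrix of collagen fibrils held by leucine-rich proteins and large glycoproteins. In the interscapular region, brown fat lies against back muscles and their connective tissue, and the genes serve as a reading of such tissue in a fat sample.

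The libraries held an estimated 12100000 to 16200000 fragments, judged by the smallest FPKM steps in single-transcript genes. Sox4, the targeted gene, had 1.98 and 1.06 FPKM in the controls, against 0.981 and 3.06 FPKM in the Sox4-MKO-labelled libraries, so the genotypes overlapped and the deletion was not visible in its mRNA. By western blot, the paper reports much less SOX4 protein in brown fat of younger Sox4-MKO mice. The labels of these libraries could not be checked by Sox4 mRNA, so all directions below follow the labels. Brown fat genes were present in every library (Ucp1 between 733 and 1935 FPKM), and 7 of the 9 brown adipocyte genes listed were lower in the Sox4-MKO-labelled libraries at an unadjusted p under 0.05. Over all 12877 genes tested the smallest adjusted p was 0.191 by limma with Benjamini-Hochberg adjustment, so none passed 0.05, whereas 1024 were higher and 1066 lower at an unadjusted p under 0.05. The smallest p that exact permutation of the 4 mice allows for a single gene, two-sided, is 0.333.

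Most of the 10 genes were barely present. Testing required a mean above 1 FPKM in either genotype, which only Tnc and Thbs4 reached, and the other 8 were under it. Of the 40 values, 9 were listed at 0, from 4 genes. An exact 0 in FPKM files can be a failed estimate, so these are described as listed at 0. Thbs4, Scx, Tnmd and Comp were higher in both libraries labelled Sox4-MKO than in both Sox4f/f libraries, and Tnc was lower. This makes 4 of 10 genes higher and 1 of 10 lower without overlap, against 19.7% and 21.3% of all 22285 rows with a value above 0. Chad, listed at 0 in every library, is counted in the 10 but not in that background. Tnmd is counted with its listed 0 in Sox4f/f mouse 2 taken as a value. The remaining 5 genes overlapped or were tied. In a fit without the filter, which held 9 of the 10 genes, Thbs4, Scx and Tnmd were higher and Tnc was lower at an unadjusted p under 0.05, none of them after adjustment. The background of that fit was 5.9% of rows higher and 5.65% lower. Because the tissue is a bulk sample, more cells of a type and more RNA per cell cannot be told apart.

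**Figure D1:**
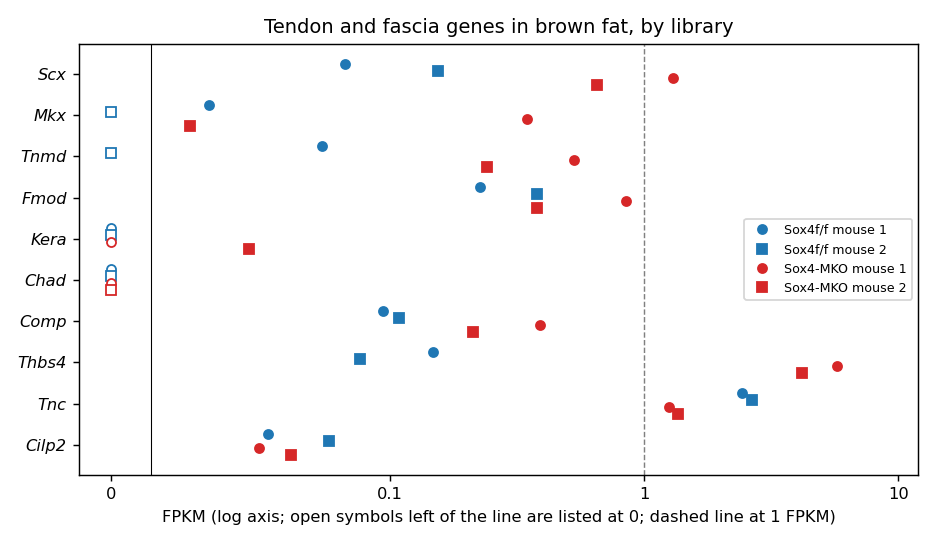
FPKM of the 10 tendon and fascia genes (rows) in each of the 4 libraries, on a log axis, with values listed at 0 as open symbols at the left and a dashed line at 1 FPKM. The Thbs4 values of the Sox4-MKO-labelled libraries, 5.72 and 4.19 FPKM, lie far to the right of the Sox4f/f values, and Tnc is the only gene with all 4 values above 1 FPKM.

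Scx encodes scleraxis, the helix-loop-helix factor that marks tendon progenitors. It lies on chromosome 15 (GRCm38), from 76457452 to 76459458 on the plus strand, inside Bop1, which is read from the other strand and shares no exon base with it. Scx had 0.0668 and 0.155 FPKM in Sox4f/f mice 1 and 2, and 1.29 and 0.652 FPKM in the mice labelled Sox4-MKO 1 and 2. The lower of the latter was above the higher of the former. These values rest on an estimated 1, 2, 17 and 11 fragments, and the ratio of the pooled fragment rates was 8.26, with an exact 95% interval of the counting error from 2.55 to 42.5. Its averaged FPKM of 0.973 in the Sox4-MKO-labelled libraries was just under the filter. In the fit without a filter the log2 difference was 0.81 (standard error 0.20, unadjusted p = 0.014, adjusted p = 0.35 by limma). Since it is not stated whether strand was used in counting, reads from unspliced Bop1 RNA could not be separated from Scx. Bop1, which functions in ribosome assembly, had 13.0 and 14.1 FPKM in the controls and 11.5 and 11.8 FPKM in the other libraries, values that do not measure its unspliced RNA, and the part of such reads in the Scx values was not tested.

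Mkx, which encodes the homeobox factor Mohawk, was seen in a single library at more than 1 fragment. It had 0.0195 FPKM in Sox4f/f mouse 1 and was listed at 0 in mouse 2, against 0.345 and 0.0164 FPKM in the mice labelled Sox4-MKO 1 and 2. Sox4-MKO mouse 1 gave an estimated 16 fragments and each other library at most 1, so the pooled ratio of 15.1 (95% interval of the counting error 2.36 to 629) describes that library. An annotated transcript of the same strand, AC148004.2, shares 201 exon bases with Mkx, and reads there cannot be assigned to one of them. The genotypes overlapped, and the unadjusted p without a filter was 0.22 (adjusted p = 0.646 by limma).

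Tnmd encodes tenomodulin, the membrane glycoprotein most used as a marker of mature tendon cells, and adipose tissue is also known to express it. The gene lies on chromosome X (GRCm38), from 133850980 to 133865577 on the plus strand. It had 0.0539 FPKM in Sox4f/f mouse 1 and was listed at 0 in mouse 2, and had 0.528 and 0.242 FPKM in the mice labelled Sox4-MKO 1 and 2. Both of the latter were above both of the former, on an estimated 1, 0, 9 and 5 fragments. The pooled ratio of fragment rates was 12.4, with an interval of the counting error from 1.89 to 524. This ratio and the fit that follows take the listed 0 as a true value. Without a filter, the log2 difference of 0.42 had a standard error of 0.13, an unadjusted p of 0.025 and an adjusted p of 0.378 (limma). The level stayed below 1 FPKM in every library, so even in the highest of them tenomodulin mRNA was scarce.

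Fmod, Kera and Chad encode leucine-rich proteins of connective tissue matrix. Fibromodulin (Fmod) binds collagen and steers the growth of fibrils, keratocan (Kera) is best known from the cornea, and chondroadherin (Chad) from cartilage. Fmod lies on chromosome 1 from 134037254 to 134048277, Kera on chromosome 10 from 97606879 to 97613692 and Chad on chromosome 11 from 94565047 to 94569127 (GRCm38, all on the plus strand), the last inside Acsf2, a gene of the other strand at 23.6 to 28.5 FPKM. Fmod had 0.225 and 0.379 FPKM in the controls and 0.850 and 0.378 FPKM in the Sox4-MKO-labelled libraries. Sox4f/f mouse 2 and Sox4-MKO mouse 2 were nearly equal, and only Sox4-MKO mouse 1 stood above the rest. An estimated 23 and 52 fragments in the pooled genotypes gave a ratio of rates of 2.00, with an interval of the counting error from 1.20 to 3.43. The unadjusted p without a filter was 0.19 (adjusted p = 0.636 by limma). Kera was listed at 0 in 3 libraries and at 0.028 FPKM, an estimated 1 fragment, in Sox4-MKO mouse 2. Chad was listed at 0 in all 4. At this depth, 3 fragments would correspond to between 0.081 and 0.11 FPKM for Kera and between 0.11 and 0.15 FPKM for Chad. If these zeros are true counts, levels below this could still have been present and given few fragments or none.

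Comp and Thbs4 are thrombospondins that assemble into pentamers, Tnc encodes tenascin C, and Cilp2 encodes a relative of the cartilage intermediate layer protein. Comp, on chromosome 8 from 70373558 to 70382066 on the plus strand, had 0.0937 and 0.109 FPKM in the controls and 0.388 and 0.213 FPKM in the Sox4-MKO-labelled libraries. The 2 genotypes did not overlap, on an estimated 3, 3, 12 and 8 fragments. The pooled ratio was 2.95 with an interval of the counting error from 1.14 to 8.98, and the unadjusted p without a filter was 0.065 (adjusted p = 0.467 by limma). Cilp2, also on chromosome 8, from 69880369 to 69887687 on the minus strand, had 0.033 and 0.0577 FPKM in the controls against 0.0304 and 0.0408 FPKM, an estimated 5 fragments in each genotype, and overlapped.

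Thbs4 encodes thrombospondin 4, a matrix protein of tendon and of the junction between tendon and muscle, which skeletal and heart muscle are also known to express. The gene has 22 exons and lies on chromosome 13 (GRCm38), from 92751590 to 92794818 on the minus strand. Because its 2 genotypes differed most among the 10 genes, the 250 bases before its start are given from RefSeq (GRCm38.p6, chr13:92794819-92795068, minus strand), 5′ to 3′, with E-boxes, the CANNTG sites that scleraxis and the myogenic factors can bind, in capitals.
Thbs4: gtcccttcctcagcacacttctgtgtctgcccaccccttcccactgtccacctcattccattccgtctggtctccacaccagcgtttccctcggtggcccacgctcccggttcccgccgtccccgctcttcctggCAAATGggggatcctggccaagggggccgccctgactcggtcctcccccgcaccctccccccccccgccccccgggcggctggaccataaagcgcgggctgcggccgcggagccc
Thbs4 had 0.148 and 0.0761 FPKM in Sox4f/f mice 1 and 2, and 5.72 and 4.19 FPKM in the mice labelled Sox4-MKO 1 and 2. Each Sox4-MKO library was thus far above each Sox4f/f library, and the spread within a genotype was small beside the gap. The mean was 0.112 ± 0.051 FPKM in the controls and 4.95 ± 1.08 FPKM in the Sox4-MKO-labelled libraries (SD, n = 2 mice each), a ratio of 44.3. An estimated 6, 3, 230 and 217 fragments gave a ratio of pooled rates of 44.0, with an interval of the counting error from 23.0 to 96.8. In Sox4f/f the gene lay above 15.6% and 8.25% of the rows with a value above 0, and in the Sox4-MKO-labelled libraries above 57.7% and 54.4%, so it moved from barely detected to a middle level.

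The log2 difference of Thbs4 on the log2(FPKM + 1) scale was 2.41 (standard error 0.24, unadjusted p = 0.00027, adjusted p = 0.191 by limma), and 155 of the 12877 tested genes had a larger one. Of all genes tested, 7.95% were higher at an unadjusted p under 0.05, and 21.7% were higher without overlap. Thbs4 passed the filter only through the libraries in which it was high, so the test gives no support beyond the values themselves. The difference stayed between 2.22 and 2.60 with each library left out in turn. The added constant compressed it, since the difference was 4.58 with 0.1 and 5.40 with 0.01 in place of 1.

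**Figure D2:**
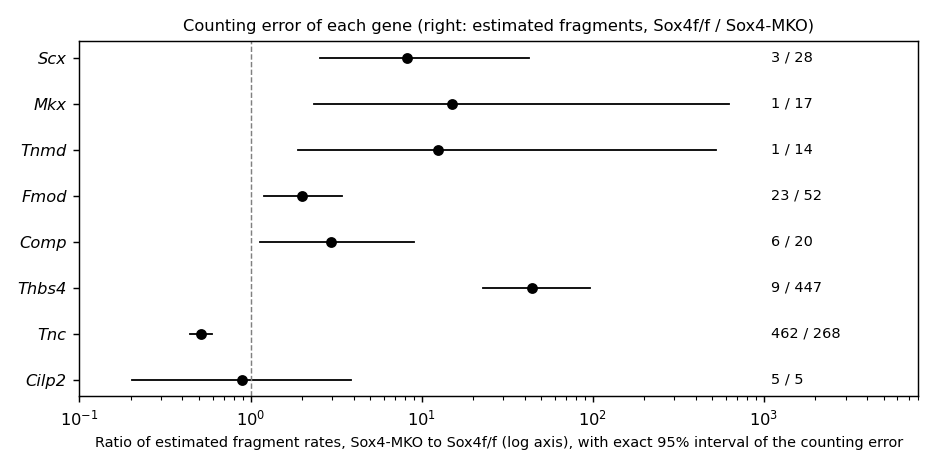
Ratio of estimated fragment rates, Sox4-MKO to Sox4f/f (log axis), for the 8 genes with fragments in both genotypes, with the exact 95% interval that covers counting error only and the fragments of each genotype at the right. The interval of Thbs4 runs from 23.0 to 96.8 and that of Tnc from 0.440 to 0.598, while those of Mkx and Tnmd, from 1 fragment in Sox4f/f, reach from 2.36 to 629 and from 1.89 to 524.

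Tnc was the only gene of the 10 that was lower without overlap. Tenascin C is a large adhesive glycoprotein of tendons, of the ends of muscle fibres and of healing tissue, and stromal cells in many organs also make it. The gene lies on chromosome 4 (GRCm38), from 63959785 to 64047015 on the minus strand, and shares 176 exon bases with 8030451A03Rik of the other strand, which was listed at 0 except for 0.186 FPKM in Sox4-MKO mouse 1. The 250 bases before its outermost start (RefSeq, GRCm38.p6, chr4:64047016-64047265, minus strand) are given for comparison with Thbs4, again with CANNTG sites in capitals.
Tnc: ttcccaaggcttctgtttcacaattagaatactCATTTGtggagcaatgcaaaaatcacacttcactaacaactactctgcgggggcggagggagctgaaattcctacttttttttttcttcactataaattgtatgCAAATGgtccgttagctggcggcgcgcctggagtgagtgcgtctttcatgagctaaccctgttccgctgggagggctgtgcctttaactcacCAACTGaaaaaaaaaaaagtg
Tnc had 2.44 and 2.66 FPKM in Sox4f/f mice 1 and 2, against 1.26 and 1.35 FPKM in the mice labelled Sox4-MKO 1 and 2. The libraries of each genotype were close to each other and did not overlap with those of the other, at a mean of 2.55 ± 0.16 against 1.30 ± 0.070 FPKM (SD, n = 2 mice each), or 1.95 times as much in Sox4f/f. The log2 difference was -0.62 (standard error 0.20, unadjusted p = 0.029, adjusted p = 0.26 by limma), where 8.28% of all tested genes were lower at an unadjusted p under 0.05 and 29.6% were lower without overlap. The unadjusted p was above 0.05 without Sox4f/f mouse 1 (log2 difference -0.67), without Sox4f/f mouse 2 (-0.58) and without Sox4-MKO mouse 1 (-0.59), and the difference kept its direction in each. An estimated 462 and 268 fragments in the pooled genotypes gave a ratio of rates of 0.514, with an interval of the counting error from 0.440 to 0.598.

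A start region was found in the RefSeq table for 7 of the 10 genes, with 8 starts. At least 1 CANNTG site, read on both strands, stood within 250 bases of 6 of the 8, against 66.2% of the 32851 start regions of all genes. Thbs4 had 1 such site, at 115 bases before the start, and Tnc had 3 before its outermost start. The letters ACAANG, which hold the core that SOX factors recognise and are read on both strands, stood in 3 of the 8 (those of Fmod, Kera and Tnmd) and in 36.3% of all start regions. They cover the AACAAAG site that the paper gives for SOX4 at Ucp1 and Prdm16, but not its AACAAGT site at Ebf2. Of narrower letters, CAGCTG stood in 0 of the 8 and in 13.0% of all, CATCTG in 1 of the 8 (that of Fmod) and in 14.4%, and TATAAA in 3 of the 8 (both starts of Tnc and that of Chad) and in 12.4%, each read on both strands and the first 2 being forms of CANNTG. A match of letters describes the sequence and shows no binding.

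The order of levels, which FPKM allows because it is per length, differed between the genotypes. In both Sox4f/f libraries Tnc was highest and Fmod next, with the others lower still. In both libraries labelled Sox4-MKO Thbs4 was highest. Scx and Tnc followed at 1.29 and 1.26 FPKM in mouse 1, which cannot be ordered by counts of this size, and in mouse 2 Tnc was above Scx. The summed FPKM of the 10 genes was 3.08 and 3.44 in Sox4f/f against 10.4 and 7.11 in the others, and without Tnc and Thbs4 it was 0.492 and 0.700 against 3.44 and 1.57.

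Skeletal muscle mRNA differed between the libraries by a wide margin, with a sum that spanned 60.9 times. Among the tendon genes, Thbs4 spanned 75.2 times, Scx 19.4, Comp 4.14, Fmod 3.77, Tnc 2.12 and Cilp2 1.90 times. The others had a library listed at 0. The lowest values of Thbs4 and Scx rest on an estimated 3 fragments and 1 fragment, and those of Comp and Cilp2 on 3 and 2, so their spans are uncertain. The summed FPKM of 25 muscle genes was 379 and 1265 in Sox4f/f mice 1 and 2, and 23060 and 4664 in the mice labelled Sox4-MKO 1 and 2, which is 0.0655%, 0.232%, 4.66% and 0.988% of all FPKM. Acta1, the actin of muscle fibres, had 59.9 and 226 FPKM against 4512 and 898 FPKM, and the fast myosin Myh4 had 15.0 and 56.5 against 1165 and 55.2 FPKM. Of the 25 genes, 23 were higher at an unadjusted p under 0.05, none of them after adjustment, and the other 2 were Myh4 and Actn3. Myh7, the slow myosin, had 1.09 and 6.84 FPKM against 208 and 44.4 FPKM. No muscle gene of the list was at 0 in any library.

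The libraries, ordered by muscle mRNA, ran from Sox4f/f mouse 1 to Sox4f/f mouse 2, Sox4-MKO mouse 2 and Sox4-MKO mouse 1. The values of Scx and Comp, 2 of the 10 genes, stood in this order, as did those of 24 of the 25 muscle genes. The order is that of the summed muscle genes, so the count among them follows in part from how it was set. Of the rows with a value above 0, 6.67% stood in it. Only rows higher without overlap can do so, and 1486 of the 4382 such rows did. In Sox4f/f mice 1 and 2, Scx rests on an estimated 1 and 2 fragments and Comp on 3 and 3, too few to order these libraries. Tnmd, Fmod, Mkx and Thbs4 were also highest in Sox4-MKO mouse 1, the library with most muscle mRNA. Between the 2 mice labelled Sox4-MKO, the median muscle gene was 4.91 times higher in mouse 1. The ratio of mouse 1 to mouse 2 was 1.98 for Scx, 2.18 for Tnmd, 2.25 for Fmod, 1.83 for Comp and 1.37 for Thbs4. It was 0.927 for Tnc, 0.746 for Cilp2 (an estimated 2 and 3 fragments) and 21.1 for Mkx (16 and 1). Kera was seen only in mouse 2. The median of all tested genes was 1.08 by the same ratio. Between Sox4f/f mice 2 and 1 the median muscle gene had a ratio of 3.50 and the median of all tested genes was 0.986. The ratio was 2.32 for Scx, 1.75 for Cilp2, 1.68 for Fmod, 1.16 for Comp, 1.09 for Tnc and 0.515 for Thbs4. All but that of Tnc come from few fragments. In mice 1 and 2 these were an estimated 1 and 2 for Scx, 2 and 3 for Cilp2 and 9 and 14 for Fmod. They were 3 and 3 for Comp and 6 and 3 for Thbs4.

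Per 1000 FPKM of the muscle genes, Scx had 0.176 and 0.122 FPKM in the controls and 0.0561 and 0.140 FPKM in the mice labelled Sox4-MKO 1 and 2. Its values thus spanned 3.14 times on this scale, against 19.4 times in FPKM, and the genotypes overlapped. The Scx values of Sox4f/f mice 1 and 2 rest on an estimated 1 and 2 fragments, so these spans and the overlap are uncertain. The same limit holds below for Thbs4 (6 and 3 fragments) and Comp (3 and 3). Thbs4 had 0.390 and 0.0602 against 0.248 and 0.898 per 1000, and spanned 14.9 times. It also overlapped between genotypes, with the highest value in Sox4-MKO mouse 2, the mouse labelled Sox4-MKO with less muscle mRNA. The muscle sum was higher in both Sox4-MKO-labelled libraries and spanned 60.9 times. Comp, Fmod and Tnc spanned far less in FPKM (4.14, 3.77 and 2.12 times). Such genes are pushed lower in those libraries, with a wider span, by the scaling itself. Their values on this scale therefore say nothing of their relation to muscle. Comp had 0.247 and 0.0860 against 0.0168 and 0.0456 per 1000, so it was lower in both Sox4-MKO-labelled libraries on this scale and spanned 14.7 times. Fmod had 0.595 and 0.2995 against 0.0369 and 0.0810 per 1000, likewise lower without overlap, and spanned 16.1 times. Tnc had 6.43 and 2.11 against 0.0544 and 0.290 per 1000, and Tnmd had 0.142 and 0 against 0.0229 and 0.0519, which overlapped. Muscle mRNA was higher in the libraries where Scx, Tnmd, Comp and Thbs4 were higher, and its part in their difference was not tested. Tnc was lower in those libraries, with values close to each other within each genotype, and the part of muscle mRNA in this was not tested either.

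**Figure D3:**
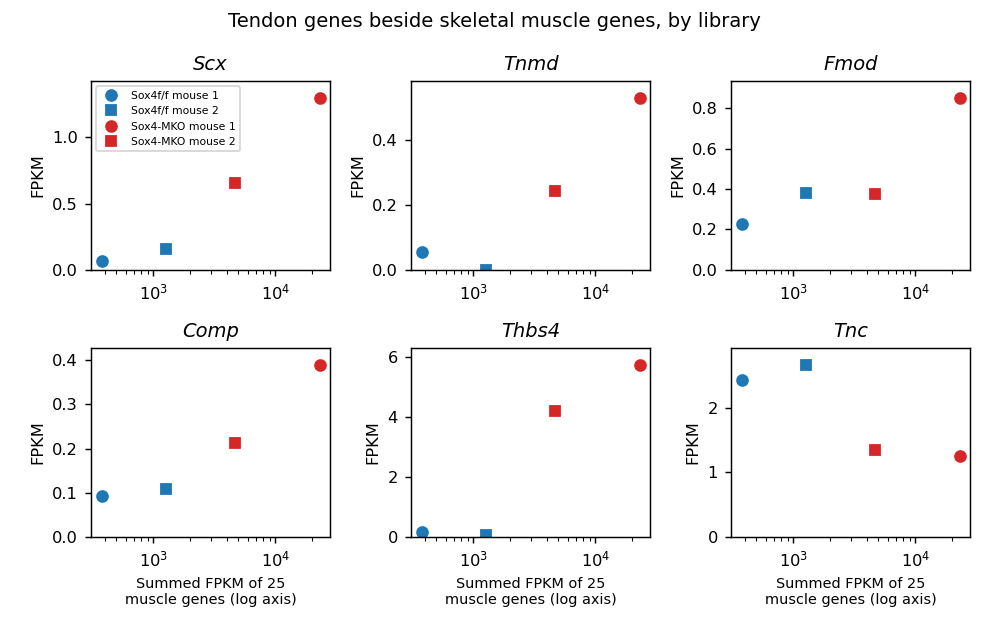
FPKM of 6 tendon genes (vertical axes, from 0) against the summed FPKM of 25 skeletal muscle genes (log axis) in the 4 libraries. The values of Scx and Comp stand in the order of the muscle sum, though their few fragments in Sox4f/f cannot order the control libraries. Thbs4 separates the genotypes with 5.72 and 4.19 FPKM on one side and 0.148 and 0.0761 FPKM on the other, and Tnc lies at 2.44 and 2.66 FPKM in the controls and at 1.26 and 1.35 FPKM in the others.

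Several close relatives of these genes were higher in the Sox4-MKO-labelled libraries. Of 18 relatives, 12 were tested, of which 7 were higher and 1 lower at an unadjusted p under 0.05, with a median log2 difference of 0.74. Over all tested genes, 7.95% were higher and 8.28% lower by the same threshold, and the median was -0.05, which is the background for each list that follows. Cilp, the relative of Cilp2 and a matrix protein of cartilage and of connective tissue, had 0.0544 and 0.191 FPKM in the controls and 8.46 and 6.63 FPKM in the Sox4-MKO-labelled libraries. The 2 genotypes did not overlap, with a log2 difference of 2.92 (standard error 0.22, unadjusted p = 8.1e-05, adjusted p = 0.191 by limma). Like Thbs4, it passed the filter only through the libraries in which it was high, so the test gives no support beyond the values. Among thrombospondins, Thbs2 rose from 0.982 and 0.822 to 3.58 and 1.91 FPKM and Thbs3 from 1.92 and 3.69 to 6.56 and 5.58 FPKM, each at an unadjusted p under 0.05. Thbs2, like Cilp, passed the filter only through the Sox4-MKO-labelled libraries, so its test gives no support beyond the values. Thbs1, a thrombospondin that assembles into trimers and responds to injury, had 4.10 and 9.28 FPKM against 1.70 and 3.84 FPKM and did not pass (unadjusted p = 0.086 by limma).

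Of the tenascins, Tnxb rose from 11.4 and 9.66 to 19.7 and 13.5 FPKM (unadjusted p = 0.048 by limma), opposite to Tnc, and Tnn was listed at 0 throughout. Tnr had at most 0.00507 FPKM. Among leucine-rich proteins, lumican (Lum), osteoglycin (Ogn) and podocan (Podn) rose, with log2 differences of 0.99, 1.36 and 0.64. Prelp had 103 and 146 against 91.2 and 78.4 FPKM and did not pass (unadjusted p = 0.054). Omd, Optc, Epyc and the Tnmd relative Cnmd, which encodes chondromodulin of cartilage, stayed under the filter. Tcf15, a factor of the same class as Scx that endothelial cells of fat express, fell from 19.5 and 29.3 to 13.1 and 13.3 FPKM, a log2 difference of -0.81 (unadjusted p = 0.017). The Mkx relatives Irx3 and Irx5 did not pass, with log2 differences of -0.19 and 0.83.

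Other matrix genes of tendon, which fibroblasts of most tissues share, were mostly higher. Of 22 genes, 18 were tested, 13 of them higher and 1 lower at an unadjusted p under 0.05 (7.95% and 8.28% over all tested genes), with a median log2 difference of 0.74. The fibrillar collagen gene Col3a1 had 85.8 and 91.1 FPKM in the controls and 242 and 221 FPKM in the others, a log2 difference of 1.38, followed by Col1a1 (1.33), Col14a1 (1.28) and Col1a2 (1.27). Col12a1, a collagen that coats fibrils in dense tissue, fell like Tnc, from 4.61 and 4.14 to 2.24 and 2.44 FPKM, a log2 difference of -0.69. Col22a1, a collagen known from the junction between muscle and tendon, stayed below the filter at 0.013 and 0.007 against 0.086 and 0.127 FPKM.

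Genes of fascia and loose connective tissue fibroblasts rose as well, and adipose progenitors share many of them, such as Pdgfra, Ly6a and Cd34. All 11 tested of 12 were higher at an unadjusted p under 0.05, against 7.95% of all tested genes, with a median log2 difference of 1.09, and none was called after adjustment. Sema3c had 1.68 and 1.67 against 7.59 and 6.23 FPKM, Dpp4 had 0.750 and 0.466 against 3.27 and 3.53 FPKM, and Mfap5 had 6.44 and 4.60 against 13.9 and 14.1 FPKM. Of these, Dpp4 passed the filter only through the libraries in which it was high, so its test gives no support beyond the values. The summed FPKM of the list was 188 and 191 in Sox4f/f against 359 and 336, so the 2 libraries labelled Sox4-MKO were close to each other here, unlike in muscle mRNA.

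Of the 21 regulators of tendon, 15 were tested, 2 of them higher and 0 lower at an unadjusted p under 0.05, against 7.95% and 8.28% of all tested genes, with a median log2 difference of 0.06 that was -0.04 without Sox4-MKO mouse 1. Ptch1, the hedgehog receptor, was one of these and had 2.41 and 2.38 against 3.68 and 3.91 FPKM. The transforming growth factor ligands Tgfb1, Tgfb2 and Tgfb3, which induce tendon genes, had log2 differences of -0.12, 0.34 and 0.49, and none passed. Cartilage and bone genes summed to between 8.12 and 10.6 FPKM per library, mostly from Alpl (3.61 to 5.28 FPKM), Col11a2 (1.62 to 3.88 FPKM) and Sox9 (0.914 to 2.43 FPKM). Of 15 genes, 5 were listed at 0 in all libraries (Col9a1, Matn1, Col10a1, Ibsp and Bglap), and none of the 3 tested, which were those just named, passed.

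**Figure D4:**
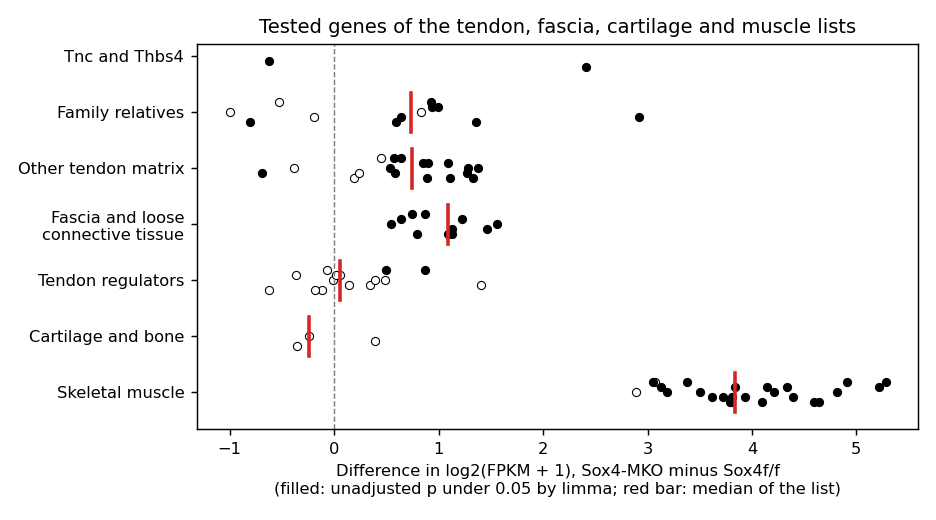
Difference in log2(FPKM + 1), Sox4-MKO minus Sox4f/f, of each tested gene (point, filled at an unadjusted p under 0.05 by limma) in each list, with the list median as a red bar. Thbs4 lies at 2.41 and Tnc at -0.62, the fascia genes centre on 1.09, and the muscle genes on 3.84 (2.71 without Sox4-MKO mouse 1 and 5.09 without mouse 2).

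Other cell types that a dissected depot can hold were read from short lists, by the same test and with the same background of 7.95% higher and 8.28% lower. Of the 8 muscle precursor genes, Myod1 and Myog were tested and both were higher, and their list summed to 0.116 and 0.294 FPKM in the controls against 5.60 and 6.96 FPKM. Both genes passed the filter only through the Sox4-MKO-labelled libraries, so their tests give no support beyond the values. Macrophage genes were higher in 4 of 6, with sums of 152 and 233 against 317 and 320 FPKM. Smooth muscle genes were higher in 1 of 8, Des, which skeletal muscle also expresses, with sums of 212 and 258 against 387 and 294 FPKM. Without Des the sums were 183 and 221 against 155 and 215 FPKM, which is no rise. None of 5 tested nerve genes and none of 5 endothelial genes passed. Of 8 general adipocyte genes, 1 was higher, Lep. Of 6 epidermis genes, Krt5, Krt1 and Dsp were listed at 0 in all libraries, and Trp63 was the only gene tested, at 0.193 and 0.0168 against 1.24 and 1.12 FPKM (unadjusted p = 0.016 by limma). Trp63 too passed the filter only through the Sox4-MKO-labelled libraries, so its test gives no support beyond the values. The part of these cell types in the values of the 10 genes was not tested.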

How the data were processed

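RNA sequencing libraries of brown fat from 4 mice were analysed, 2 per genotype. The authors deposited 1 FPKM value per gene symbol and library. Per the labels, the submitters' processing notes list Cufflinks 2.1.1, Cuffdiff and the build mm10, without their roles. The aligner and annotation are not given in the sources used here. The methods describe TRIzol and a TruSeq library, the labels a column kit and a stranded library. Genes whose mean exceeded 1 FPKM in either genotype entered the test, made on log2(FPKM + 1) with limma 3.58.1 in R 4.3.3, with genotype as the only term and a trended prior. Every p is two-sided. Scripts were first tested on simulated data.

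Genomic positions are those of the same symbol in GENCODE M21 (GRCm38, the same assembly as mm10). The value of 1 fragment was taken as the most frequent end point of an iterated median, from 9 starting values, over FPKM multiplied by transcript length in 6741 genes with a single transcript of at least 1500 nt. Fragments of a gene use its longest coding transcript, are rounded and approximate (up to 4 end points were found per library), and their intervals (exact, 95%) cover counting error only. Of the 24 nonzero values of the 10 genes with under 20 estimated fragments, 16 lay within 0.15 of a whole number. Among the single-transcript genes with low values, 38.0% to 50.6% did so per library, so the fragment numbers are estimates and not recovered counts.

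The 10 genes and all lists (relatives, other tendon matrix, fascia, tendon regulators, cartilage and bone, skeletal muscle, muscle precursors, brown adipocytes, adipocytes, smooth muscle, nerve, endothelium, macrophages, epidermis) were chosen with earlier results of these data known. All 10 genes are named, with the relatives. Of other lists, at most 4 genes in each direction with an unadjusted p under 0.05 were taken by size of log2 difference, plus Acta1, Ckm, Mylpf, Myh4 and Myh7 of muscle, and further genes were named after their values were seen. Lists are described by counts and medians, with no set test. The values of 1 gene of the tendon regulators are not reported here. Figures were drawn with matplotlib 3.10.9.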

Additional observations from a re-analysis of the deposited data

How the results depend on the processing

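Thbs4 was higher at an unadjusted p under 0.05 in every alternative with all 4 libraries in which it was tested. With a filter, it entered only through the libraries in which it was high. The alternatives also reuse the same values, so they give no support beyond the values themselves. Tnc kept its direction in every alternative in which it was tested. With the mouse number as a replicate block, Tnc had a log2 difference of -0.62 and an unadjusted p of 0.055, and 0 of the 10 genes were called lower. The labels do not say that a number pairs mice, and deviations of same-numbered libraries correlated at -0.0122. Leaving out each library in turn gave -0.67 to -0.58 for Tnc, 1 to 2 of the 10 genes higher and 0 to 1 lower. Over all tested genes, the same step gave 445 to 1559 higher and 404 to 1012 lower calls (445 and 404 without Sox4f/f mouse 1, 567 and 503 without Sox4f/f mouse 2, and 1559 higher without Sox4-MKO mouse 2), and 0 to 5 with an adjusted p under 0.05. Limits of 0.1 and of no FPKM gave 3 of the 10 genes higher, and a limit of 5 gave 0 higher and 0 lower, since none was then tested. The median of the relatives was 0.47 with a limit of 0.1 and 0.34 with none. That of the fascia genes was 1.14 and 1.15 with constants of 0.1 and 0.01, 0.98 with limits of 0.1, of 5 and of none, 1.06 with a common median and with quantile normalization, 1.15 after rescaling without mitochondrially encoded genes and Ucp1, and 0.93 to 1.01 with libraries left out. These medians kept their direction. With libraries left out, the median of the relatives was 0.57 to 0.94, and that of the muscle genes was 2.71 without Sox4-MKO mouse 1, 5.09 without Sox4-MKO mouse 2, 3.14 without Sox4f/f mouse 1 and 4.76 without Sox4f/f mouse 2. Depth limits 8 of the 10 genes, which rest on few fragments.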

Other observations

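The tested genes whose 4 libraries lay closest to the averaged, centred profile of Thbs4 and Tnc on the log2(FPKM + 1) scale were Fxyd2, Sntb1, Gas7, Pcolce2 and Timp2, at root mean square distances of 0.027 to 0.057. Pcolce2, which encodes an enhancer of procollagen processing, had 2.06 and 2.15 FPKM in the controls and 5.15 and 4.08 FPKM in the Sox4-MKO-labelled libraries. Timp2, an inhibitor of matrix proteases, had 20.7 and 21.7 against 40.4 and 40.1 FPKM. The measure averages a gene that rose with a gene that fell, and it rests on 4 libraries. Mstn, which encodes myostatin of muscle, was in the list of tendon regulators and had 0.056 and 0.124 FPKM in Sox4f/f, against 5.34 FPKM in Sox4-MKO mouse 1 and 0.313 FPKM in mouse 2.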
